A study of Mus musculus with 8 samples.

Results

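This account covers 9 genes known for stem and progenitor cell self-renewal, Kit, Flt3, Cd34, Meis1, Hoxa9, Lmo2, Mecom, Hlf and Myb, out of 27835 genes measured. They were taken by row ID (the Ensembl gene ID with the ending _at), and all 9 were found, each with 1 row. The rule itself used no values, but the genes were chosen with earlier results of these data known. RNA came from proB cell colonies that mouse bone marrow formed in B cell methylcellulose medium and that were collected after 1 week, and it was hybridised to 8 Affymetrix arrays. The 4 wild-type samples carried no labelled alteration, and the 4 HMGN1-overexpressing samples came from a transgenic genotype that overexpresses HMGN1, a nucleosome-binding protein. Both groups were grown and collected by the same protocol. The promoter of the transgene, the strain and age of the mice, and whether the 4 samples of a genotype came from separate animals are not given in the sources used here, so the p-values rest on the scatter among these samples, part of which may be technical. Values are intensities on a linear scale after the submitters' RMA normalization, which gives all arrays nearly the same distribution.

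Blood stem cells renew themselves through signals received by surface receptors and through a set of transcription factors that are turned down as cells commit to a lineage. KIT and FLT3 are receptor tyrosine kinases for stem cell factor and FLT3 ligand, and CD34 is a sialomucin found on early progenitors. HOXA9 and its partner MEIS1 are homeodomain factors, LMO2 is an adaptor that joins other DNA-binding proteins, and MECOM, HLF and MYB bind DNA themselves. In early B cells KIT and MYB are known to persist, while FLT3 and most of the stem cell factors decline on commitment.

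The comparison asks whether genes of this programme differ when HMGN1 is overexpressed in proB colonies. None of the 9 passed limma's test with Benjamini-Hochberg adjustment over all genes at an adjusted p under 0.05, where 0.0144% of all genes passed. At an unadjusted p under 0.05 there were 2 of the 9, against 10.4% of all genes. Kit was the 1 of them with higher values in HMGN1-overexpressing colonies, where 5.83% of all genes were, and Hoxa9 the 1 with lower values, where 4.59% were. The arrays of the 2 genotypes did not overlap for 1 of the 9, Kit, against 6.81% of all genes, and 4.15% of all genes had, like Kit, every HMGN1-overexpressing array above every wild-type array. The direction was mixed: 4 of the 9 had a higher mean and 5 a lower mean with HMGN1, against 49.4% and 50.6% of all genes. The median log2 fold change of the 9 was -0.027 and that of all genes -0.0018.

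**Figure D1:**
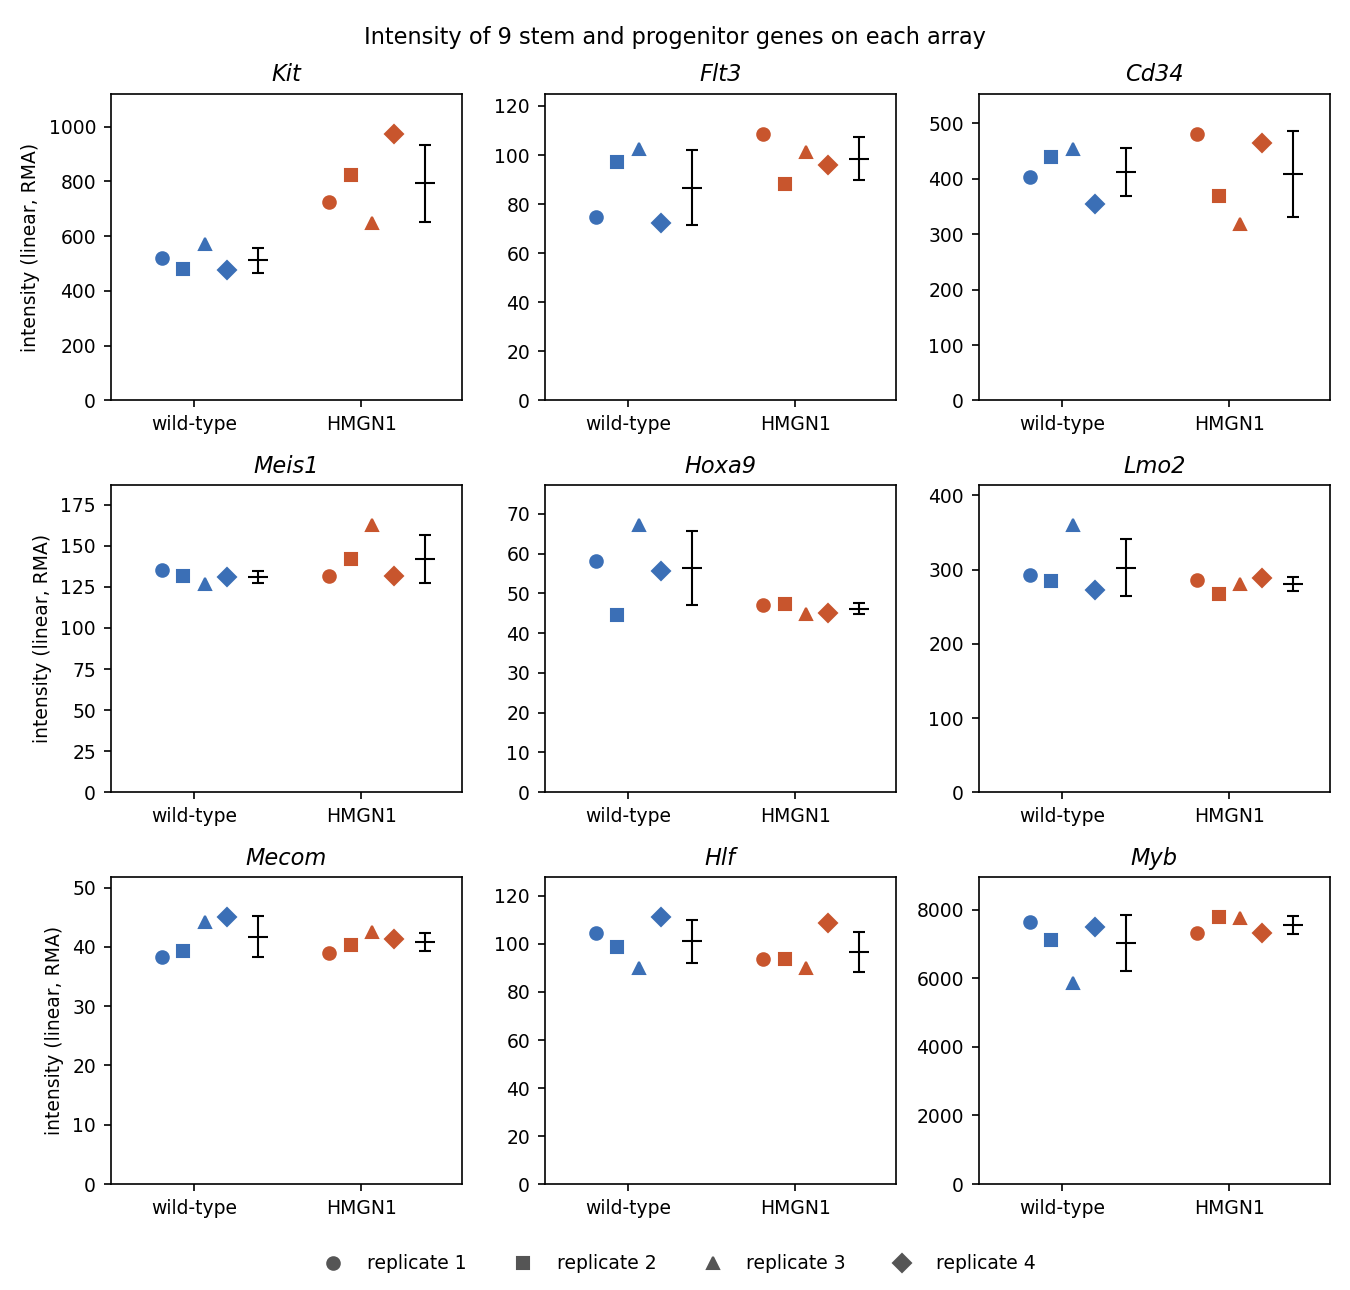
Intensity (linear, RMA) of the 9 genes on each of the 8 arrays, with wild-type in blue and HMGN1-overexpressing in orange. Marker shapes give the replicate number, the black bar is the mean with SD (n = 4) and each vertical axis starts at 0. The 4 HMGN1-overexpressing arrays lie above every wild-type array for Kit, from 649 to 975 against 475 to 573, and the genotypes overlap for the other 8 genes.

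Sequences just before the start of Kit and Hoxa9 are shown because these are the 2 genes with an unadjusted p under 0.05, and their upstream sequences differ in composition. Each is the 250 bases before the annotated start from RefSeq (GRCm38.p6), in the direction of the gene, with CpG dinucleotides in capitals. Kit lies on the plus strand at chr5:75574737-75574986 and Hoxa9 on the minus strand at chr6:52227371-52227620.
Kit: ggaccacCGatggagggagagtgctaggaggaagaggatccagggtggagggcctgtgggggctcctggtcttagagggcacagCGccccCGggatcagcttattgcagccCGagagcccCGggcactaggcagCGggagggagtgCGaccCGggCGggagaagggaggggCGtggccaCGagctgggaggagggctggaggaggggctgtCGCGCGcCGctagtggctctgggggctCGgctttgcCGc
Hoxa9: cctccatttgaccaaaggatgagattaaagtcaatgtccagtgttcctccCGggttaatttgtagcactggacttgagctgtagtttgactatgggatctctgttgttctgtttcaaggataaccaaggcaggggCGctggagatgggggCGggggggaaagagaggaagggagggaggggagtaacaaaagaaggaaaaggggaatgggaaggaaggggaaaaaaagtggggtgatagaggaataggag
Kit held 17 CpGs in this window and a G+C content of 70.8%, whereas Hoxa9 held 3 and 49.6%. The median over 32851 windows of the same length was 6 CpGs and 52.4%. RefSeq windows were matched by symbol for 8 of the 9 genes, 10 windows in all, since Kit and Mecom had 2 each. CpG counts in the 10 windows ran from 3 in Hoxa9 to 40 in Myb, with 26 in Hlf, 13 in Flt3, 13 in Meis1 and 6 in Cd34. The GC box GGGCGG, searched on both strands with overlapping matches counted, was present in 6 of the 10 windows and in 32.7% of all windows. The MEIS core TGACAG was in 1 of the 10, a Mecom window, and in 15.9% of all. The MYB core AACNG was in 6 of the 10 and in 74.2% of all. The 2 Kit windows share nearly all their bases, so the 10 windows are not independent. Each Kit window held 1 GC box and 0 MYB cores. The 6 windows with a MYB core each belonged to a different gene. These are matches of letters only, and no binding or histone mark was measured on these arrays.

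Among the surface proteins, Kit (ENSMUSG00000005672_at) had the largest difference. Its intensity was 520, 480, 573 and 475 in wild-type replicates 1 to 4 and 724, 823, 649 and 975 in HMGN1-overexpressing replicates 1 to 4. Every array with HMGN1 overexpression lay above every wild-type array, and the nearest pair, wild-type replicate 3 and HMGN1-overexpressing replicate 3, was 0.18 apart on the log2 scale. The mean intensity was 512 ± 45.1 in wild-type and 793 ± 141 in HMGN1-overexpressing colonies (SD, n = 4 each), a ratio of geometric means of 1.54 with a 95% interval from 1.27 to 1.85. On the log2 scale the difference was 0.62 (SE 0.121). By limma its unadjusted p was 0.000522, rank 102 of 27835, and its adjusted p was 0.142. The two-sided exact permutation test gave p = 0.0286, the smallest that 4 against 4 arrays allow. HMGN1-overexpressing replicate 4 had the highest Kit value, and without it the log2 difference was 0.51. In bulk RNA, a larger share of cells that express a gene and more of its RNA per cell cannot be told apart.

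With the first principal component of the residuals as a covariate, an alternative chosen with earlier results in view, Kit had the same log2 difference and passed (limma adjusted p = 0.0458). That covariate was derived from these same data and the adjusted p makes no allowance for it. With it 241 of the 27835 genes passed, against 4 in the main fit. Kit did not pass in any of the other 15 alternatives, with adjusted p from 0.0942 to 0.359. The plot of differences with each array left out shows that the sign of Kit did not turn in any of the 8 fits that leave out 1 array.

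**Figure D2:**
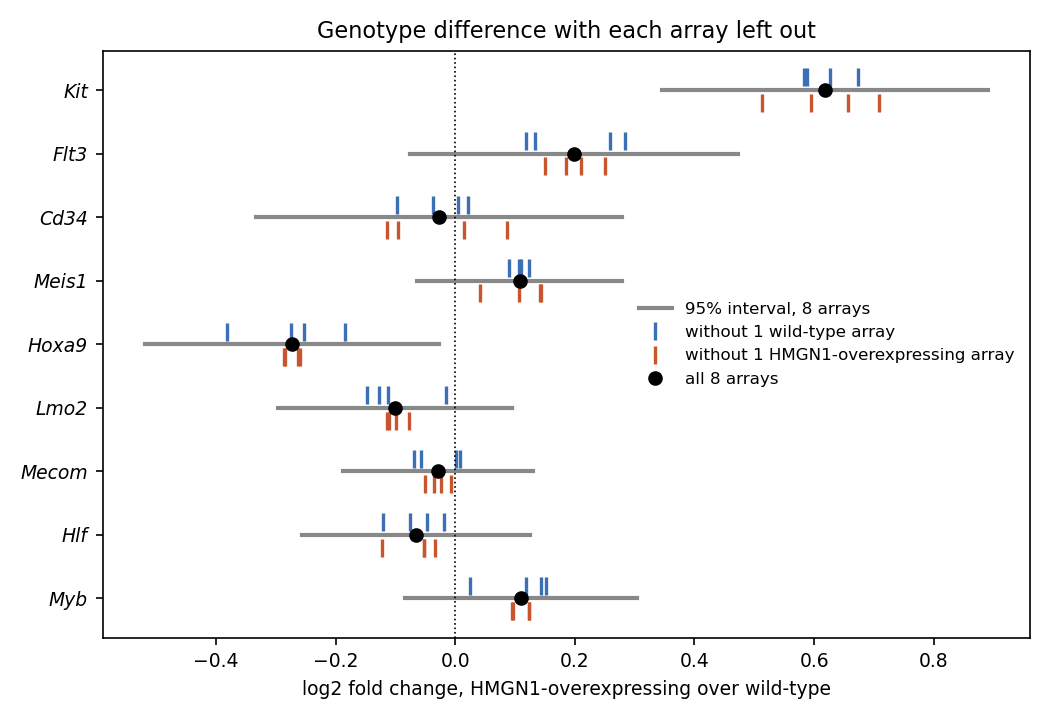
Log2 fold change of HMGN1-overexpressing over wild-type for each gene, with 0 as the dotted line. Black points are the estimates from all 8 arrays, grey bars their 95% intervals by limma, and ticks the estimates with 1 wild-type array (blue) or 1 HMGN1-overexpressing array (orange) left out. Kit stays between 0.51 and 0.71, while the ticks of Cd34 and Mecom fall on both sides of 0.

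Flt3 (ENSMUSG00000042817_at), the other receptor kinase, had overlapping groups. Its intensity was 74.8, 97.0, 102 and 72.5 in the wild-type arrays and 109, 88.4, 101 and 96.0 in the HMGN1-overexpressing arrays. Wild-type replicates 1 and 4 were lower than the other 6 arrays, which overlapped one another. The log2 difference was 0.20 (SE 0.122, limma adjusted p = 0.608), with a 95% interval from -0.075 to 0.47.

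Cd34 (ENSMUSG00000016494_at) had close to equal means, at 412 ± 44.0 in wild-type and 408 ± 77.7 with HMGN1 (SD, n = 4 each). Its arrays read 402, 438, 453 and 354 in wild-type and 482, 370, 318 and 464 with HMGN1. The HMGN1-overexpressing arrays thus held both the highest value, in replicate 1, and the lowest, in replicate 3. The log2 difference of -0.027 (limma adjusted p = 0.963) had a 95% interval from -0.33 to 0.28. Cd34 had the largest residual SD of the 9 genes, 0.23 on the log2 scale, which is at percentile 89.3 of all genes.

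Of the homeodomain factors, Hoxa9 (ENSMUSG00000038227_at) had lower and Meis1 (ENSMUSG00000020160_at) higher mean values with HMGN1. Hoxa9 read 58.0, 44.5, 67.1 and 55.6 in wild-type and 47.2, 47.4, 44.7 and 45.2 in HMGN1-overexpressing arrays. Wild-type replicate 2 was the lowest of all 8, so the groups overlapped, while the other 3 wild-type arrays lay above all 4 with HMGN1. The log2 difference was -0.27 (SE 0.110, 95% interval -0.52 to -0.027), with a limma unadjusted p of 0.033 and an adjusted p of 0.425. The exact permutation test gave p = 0.143. Hoxa9 had a mean signal at percentile 31.8 of all genes, and no measure of detection over background was analysed here. Background left in a dim signal would make a fold appear too small. Whether Hoxa9 RNA was detected at all is unknown, so whether the difference reflects its RNA was not tested. Meis1 read 136, 132, 127 and 131 in wild-type and 132, 142, 162 and 131 with HMGN1. HMGN1-overexpressing replicate 3 was the highest, and the log2 difference of 0.11 (limma adjusted p = 0.663) was 0.041 without it.

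**Figure D3:**
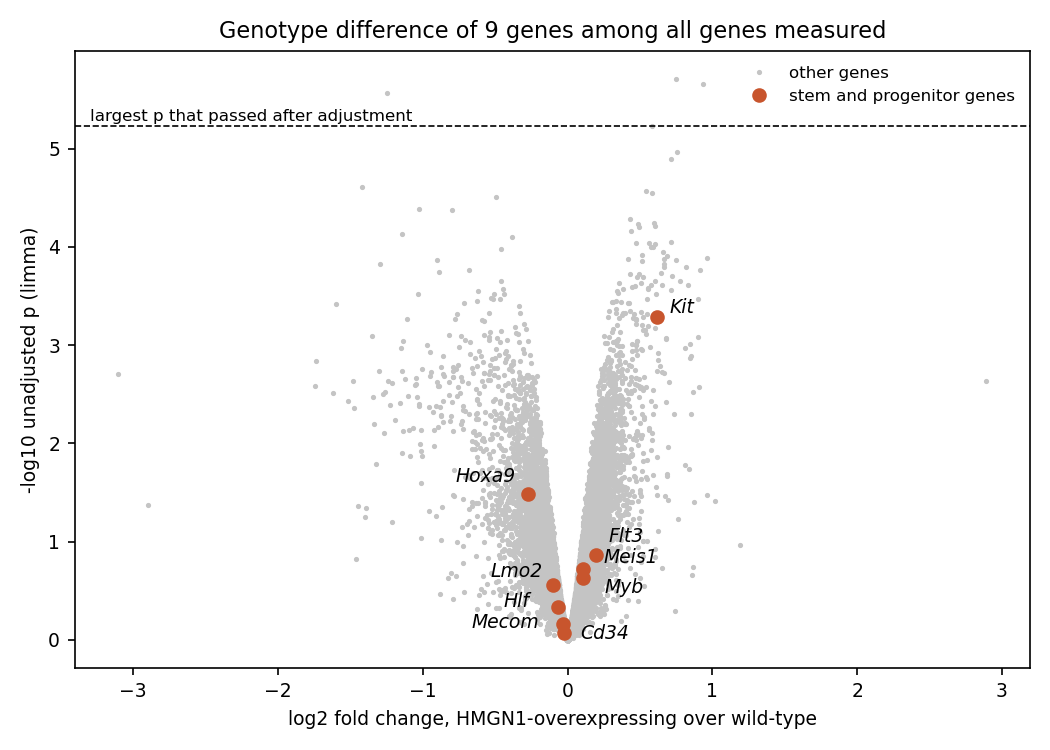
Log2 fold change (horizontal) against -log10 of limma's unadjusted p (vertical) for 27835 genes in grey and the 9 stem and progenitor genes in orange. The dashed line marks the largest unadjusted p that passed after adjustment. Kit, at 0.62, lies below that line, and the other 8 genes lie between -0.27 and 0.20.

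Lmo2 (ENSMUSG00000032698_at) and Myb (ENSMUSG00000019982_at), both measured well above the median signal, differed little between genotypes. Lmo2 read 293, 285, 360 and 273 in wild-type and 286, 268, 280 and 289 with HMGN1. One array, wild-type replicate 3, was above the rest, and the other 7 overlapped. The log2 difference was -0.10 (limma adjusted p = 0.723), and -0.015 without that array. Myb, required for early B cell development, had one of the strongest signals, at percentile 99.7 of all genes. It read 7638, 7114, 5864 and 7494 in wild-type and 7329, 7778, 7751 and 7328 with HMGN1. Here wild-type replicate 3 was the lowest, and the log2 difference of 0.11 (limma adjusted p = 0.695) was 0.025 without it.

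Mecom (ENSMUSG00000027684_at) and Hlf (ENSMUSG00000003949_at), factors of long-term stem cells, had the smallest log2 spans of the 9 genes over the 8 arrays, 0.23 and 0.30. Their residual SDs were at percentiles 30.2 and 53.9 of all genes, so that of Hlf was ordinary. Mecom read from 38.3 to 45.0 in wild-type and from 38.9 to 42.6 with HMGN1, and its mean signal lay at percentile 26.9 of all genes. All 4 HMGN1-overexpressing values fell inside the wild-type range, and the log2 difference was -0.029 with a 95% interval from -0.19 to 0.13 (limma adjusted p = 0.918). Hlf read from 90.0 to 111 in wild-type and from 90.2 to 109 with HMGN1, again inside the wild-type range. Its log2 difference was -0.065 with a 95% interval from -0.26 to 0.12 (limma adjusted p = 0.826).

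The scatter among arrays was small enough to bound most of these differences in array signal. Where a signal is mostly background, a narrow interval says little about the gene's RNA, and detection was not analysed. The 95% interval, taken gene by gene, lay within 1.5-fold in both directions for 8 of the 9 genes, all but Kit, against 93.8% of all genes. Within 2-fold it lay for all 9, against 98.7%. The median residual SD of the 9 was 0.13 on the log2 scale and that of all genes 0.12. For 7 of the 9 the residual SD was above the median of all genes, against 50% of all genes.

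Wild-type replicate 3 stood apart on the first principal component over all genes, at 36.2 where the other 7 arrays lay between -17.5 and 2.51. For 8 of the 9 genes it was the highest or lowest wild-type array: the highest for Kit, Flt3, Cd34, Hoxa9 and Lmo2, and the lowest for Meis1, Hlf and Myb. Over all genes it was at an extreme of its group in 62.5%, where an array with no tendency would be so in 50%. Without it the log2 difference was 0.67 for Kit (limma adjusted p = 0.117) and was -0.18 for Hoxa9 (limma adjusted p = 0.528). Neither passed. The part of this array's other differences in these values was not tested.

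**Figure D4:**
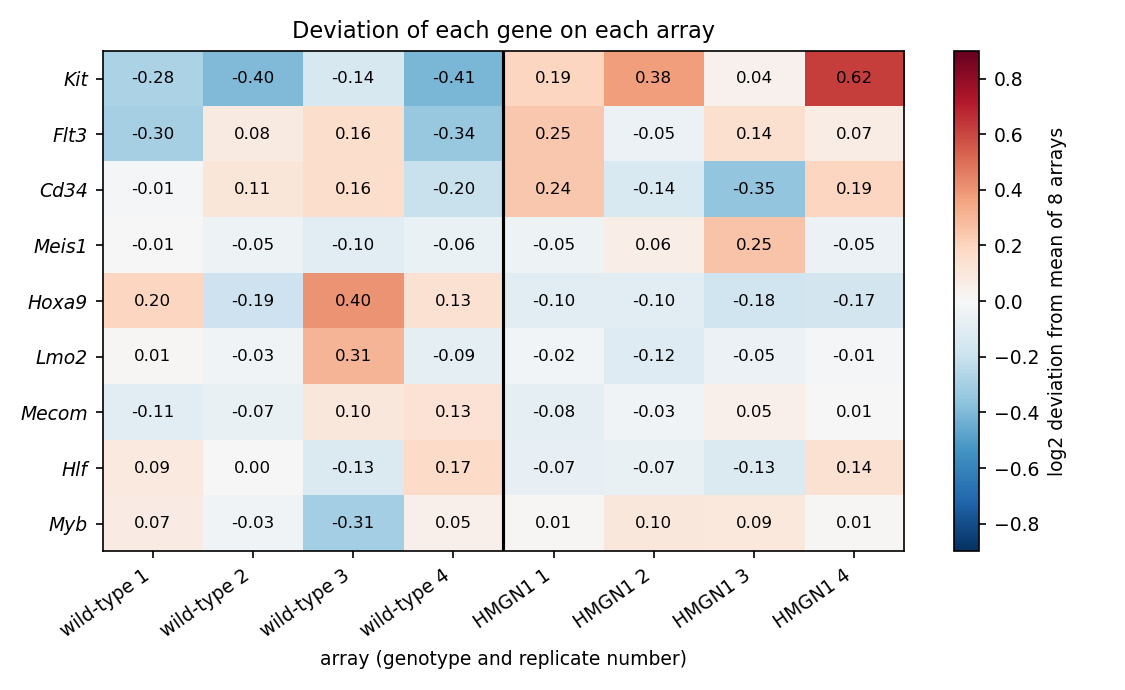
Log2 deviation of each gene (rows) on each array (columns) from its mean over the 8 arrays, red above and blue below, with the values printed. The vertical line parts wild-type from HMGN1-overexpressing arrays. The Kit row is negative in all 4 wild-type and positive in all 4 HMGN1-overexpressing arrays, and wild-type replicate 3 has the largest deviations of Hoxa9 (0.40), Lmo2 (0.31) and Myb (-0.31).

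The 9 genes were also compared with one another across the arrays. Both genotypes were pooled, so genotype differences and scatter within a genotype are mixed in these correlations. Of 36 pairs of genes compared over the 8 arrays, 0 had a correlation that passed Benjamini-Hochberg adjustment by exact permutation test, for Pearson's r or Spearman's rho, while 2 had an unadjusted p under 0.05 for Pearson's r and 2 others for Spearman's rho. By Pearson's r these were Lmo2 with Myb and Cd34 with Meis1. Lmo2 and Myb gave r = -0.938 (exact permutation p = 0.0197, adjusted p = 0.354) and rho = -0.635 (exact permutation p = 0.0994, adjusted p = 0.828). Without the 2 arrays farthest from the median of Lmo2, among them wild-type replicate 3, r was -0.132, so the relation rested on those arrays. Cd34 and Meis1 gave r = -0.77 (exact permutation p = 0.0166, adjusted p = 0.354) and rho = -0.429 (exact permutation p = 0.299, adjusted p = 0.925). That r was -0.836 without the 2 arrays farthest in Cd34 and -0.231 without the 2 farthest in Meis1. By Spearman's rho they were Flt3 with Hlf and Meis1 with Myb. Ranks were taken from rounded log2 values, which tied Myb at 12.839 in HMGN1-overexpressing replicates 1 and 4. Every rho with Myb is therefore approximate. Flt3 and Hlf gave rho = -0.810 (exact permutation p = 0.0218, adjusted p = 0.446) and r = -0.708 (exact permutation p = 0.0537, adjusted p = 0.509). That r was -0.307 without the 2 arrays farthest in Flt3 and -0.782 without the 2 farthest in Hlf. Meis1 and Myb gave rho = 0.790 (exact permutation p = 0.0248, adjusted p = 0.446) and r = 0.565 (exact permutation p = 0.127, adjusted p = 0.760). That r was 0.880 without the 2 farthest in Meis1 and 0.700 without the 2 farthest in Myb. For deviations from each genotype's mean, r was -0.925 for Lmo2 with Myb and -0.856 for Cd34 with Meis1. It was -0.679 for Flt3 with Hlf and 0.440 for Meis1 with Myb. Wild-type replicate 3 had the largest such deviations of both Lmo2 (0.26) and Myb (-0.25). Without that array alone the pooled r of Lmo2 with Myb was -0.439, and their r of deviations was not computed without it.

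Kit was the 1 member whose log2 values spanned at least 1 over the arrays, and the genes most like it were sought among the 1077 other rows with such a span. The highest Pearson correlations over the 8 arrays were those of ENSMUSG00000046844 (r = 0.95) and ENSMUSG00000022197 (r = 0.944), given by ID because the files pair no symbols with these rows. ENSMUSG00000046844 had a mean intensity of 225 ± 31.6 in wild-type and 428 ± 94.99 with HMGN1 (SD, n = 4 each; limma adjusted p = 0.114). ENSMUSG00000022197 had 584 ± 78.4 and 958 ± 112 (SD, n = 4 each; limma adjusted p = 0.107). Both were picked as the highest of many, so these correlations are a description. Kit itself parted the genotypes, so picking rows by likeness to Kit favours rows that do so too. Their means and limma adjusted p-values are therefore also a description, not a test.

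Other genes of the KIT and FLT3 pathways, partners of MEIS1 and HOXA9, and markers of proB cells or of other marrow cells were not analysed here, because the 119 further symbols listed for them could not be paired with row IDs. The labelled cell type was therefore not checked against its markers.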

How the data were processed

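The values analysed are the deposited intensity of 27835 genes on 8 arrays, 4 per genotype, summarised with RMA by the authors per the submitters' processing notes. They ran from 5.80 to 17578 and were read as linear, and log2 was taken. Which release of the Ensembl gene models the probes were grouped by is not given here. There were 0 columns of other samples, and at most 0.108% of values were equal between any 2 arrays. Groups came from the sample titles. limma (version 3.58.1, R 4.3.3; lmFit and eBayes) was fitted to all 27835 genes without a block, with Benjamini-Hochberg adjustment over all of them, after a test on simulated data. Errors are SD over arrays or the SE of the fit, and the number of arrays limits the precision. Correlations and single genes were tested by exact permutation, two-sided. All 9 members were named whatever their result, plus the 2 rows most like any member whose log2 values span at least 1. The members and lists were chosen with earlier results of these data known. RefSeq's table (49997 genes) lists 0 Ensembl IDs, which left symbols for the 9 members alone. Alternatives changed the scaling (medians, quantiles), the variance model (trended and robust), the array weights, the pseudocount (16) or the genes kept (brighter ones only), added a replicate block, left out each array, took levels from linear means or, added later, fitted a residual component.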

Additional observations from a re-analysis of the deposited data

How the results depend on the processing

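Over all genes, limma called 4 genes with all arrays, 0 with the replicate block, 241 when the first residual component was added to the model (an alternative added later) and between 0 and 40 with 1 array left out. Of the 9 stem and progenitor genes, Kit was called, with the residual component alone, at a log2 difference of 0.62 (limma adjusted p = 0.0458), and the cause was not tested. With the replicate block its log2 difference was also 0.62 (limma adjusted p = 0.359). Same-numbered arrays did not share deviations over all genes (r = -0.0777, -0.0879, -0.237 and -0.0946), so the numbers gave no sign of pairing. With 1 array left out, the log2 differences ranged from 0.51 to 0.71 for Kit, 0.12 to 0.28 for Flt3, 0.041 to 0.14 for Meis1, -0.38 to -0.18 for Hoxa9, -0.15 to -0.015 for Lmo2, -0.12 to -0.018 for Hlf and 0.025 to 0.15 for Myb. Cd34 ranged from -0.11 to 0.086 and Mecom from -0.069 to 0.0086, and their signs turned in 4 and 2 of these fits. Flt3, Hoxa9 and Mecom lay below the median signal and had no value with brighter genes only. Mean levels of all 9 genes moved by less than the spread between replicates when taken from linear means. No signal over background was used, so detection is unknown for all 9 genes, the dim Mecom and Hoxa9 among them.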
